A study of Mus musculus with 18 samples.

Results

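The 10 genes followed here encode the phototransduction cascade of cones: the 2 cone opsins *Opn1sw* and *Opn1mw*, the cone arrestin *Arr3*, the transducin subunits *Gnat2*, *Gnb3* and *Gngt2*, the phosphodiesterase subunits *Pde6c* and *Pde6h*, and the channel subunits *Cnga3* and *Cngb3*. They were picked by name for their place in this cascade, and all 10 were among the 78239 genes of the count tables. Retinal mRNA had been sequenced in 5 libraries from mice given AAV::*nsHif1a* by subretinal injection and 5 from mice given AAV::eGFP. Injection was at postnatal days 29 to 32, and the retinas were collected 3 weeks later. The paper does not say whether each retinal library came from a different mouse. The vector carried either a Myc-tagged mouse HIF1A that stays stable and active in normal oxygen (*nsHif1a*) or the fluorescent protein eGFP, both behind the mOP promoter, which is active in rods, and it reached only a part of each retina. The other 8 libraries came from 661W cells, a photoreceptor-like mouse line derived from a retinal tumour, 4 transfected with CMV-*nsHif1a* and 4 with CMV-eGFP and harvested 20 h later. The labels give C57BL/6J for the mice, whereas the study's methods name 129S6. The labels do not say that the cell libraries came from separate cultures, so their p-values measure only the spread between these libraries.

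In a cone, light turns an opsin into a catalyst that loads the transducin α-subunit with GTP, the α-subunit relieves the inhibition of a phosphodiesterase, cyclic GMP falls and the cyclic nucleotide-gated channel closes. Arrestin ends the signal by binding the phosphorylated opsin. Rods run the same steps with a second set of genes, among them *Sag*, *Gnat1*, *Gnb1*, *Gngt1*, *Pde6a*, *Pde6b*, *Pde6g*, *Cnga1* and *Cngb1*. In the mouse most cones make both opsins, in ratios that change from the ventral to the dorsal retina. Because the mOP promoter is a rod promoter, the cone genes report mainly on cells other than those meant to express the vector's gene. The vector reached only a part of each retina, so the libraries mix cones near transduced rods with cones away from them. The 661W line was used as a cellular model of photoreceptors. The 2 questions were therefore whether the RNA of the cone cascade changed when HIF1A was active in rods, and which of these genes the cell line still expressed.

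Of the 10 cone genes in the retina, 1 rose past both thresholds (adjusted p under 0.05 and a log2 fold change over 0.5), against 1.08% of all 18859 genes tested. It was *Gnb3*, the transducin β-subunit, which was 1.43-fold higher with AAV::*nsHif1a* (95% limits 1.27 to 1.62). *Gnb3* lost this call in 6 of 19 alternative fits. The 2 of these that took uneven *Xist* counts into account, described below, called *Arr3* lower instead. None fell past both thresholds in the main limma fit, where 0.912% of all genes did. By edgeR and DESeq2 the number of cone genes called in total was the same, 1. The middle-wavelength opsin *Opn1mw* was lower by less than the fold threshold (0.831-fold, 0.759 to 0.910, adjusted p = 0.0232 in limma). At an unadjusted p under 0.05 there were 3 cone genes, *Gnb3*, *Opn1mw* and *Arr3*, beside 4097 of all 18859 genes tested. The same background applies to each count at this level given below for a retinal list. An adjusted p under 0.05 was reached by 1091 genes. The 8 genes other than *Gnb3* and *Opn1mw* did not pass the adjusted threshold, and their log2 fold changes lay between those of *Arr3* (-0.32) and *Pde6h* (0.17). The median over the 10 genes was 0.07 on the log2 scale, with 6 of them higher, beside a median of -0.0021 over all genes tested. In 661W cells 8 of the 10 genes were too low to be tested, and the 2 that could be, *Gnat2* and *Gngt2*, had 11 to 43 counts per library.

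**Figure D1:**
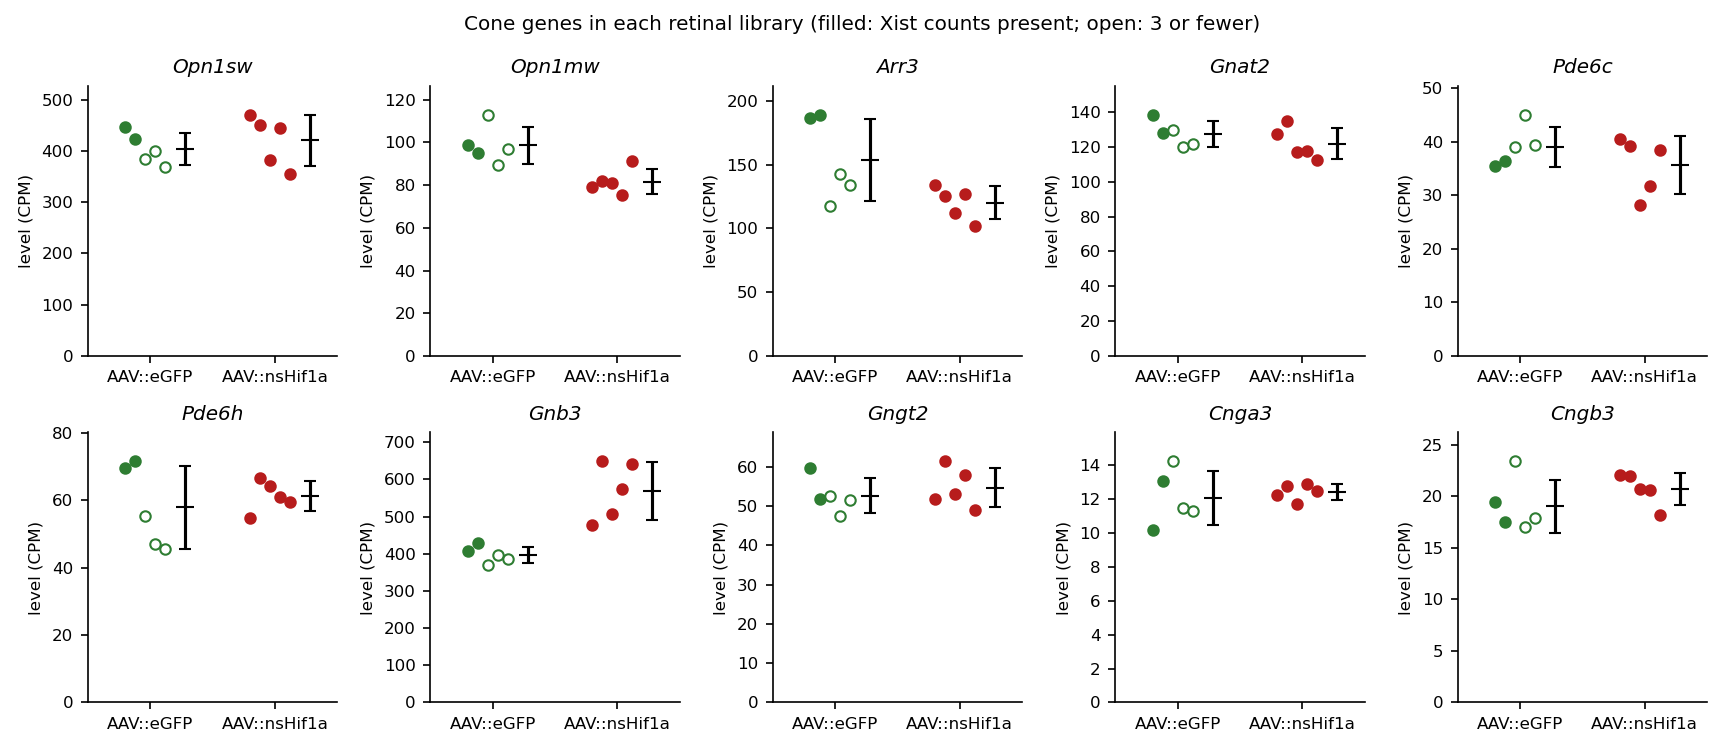
Level of each cone gene in CPM, its TMM-scaled share of a library's counts (vertical axes from 0), in the 5 AAV::eGFP (green) and 5 AAV::*nsHif1a* (red) retinal libraries, with the mean and SD as black bars. Filled points are libraries with *Xist* counts. The 2 groups do not overlap for *Gnb3*, where the lowest red point is at 477 CPM and the highest green point at 428 CPM, and among the green points the filled ones stand above the open ones for *Opn1sw*, *Arr3*, *Pde6h* and *Gnb3* and below them for *Pde6c*.

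The libraries held 12898220 to 16167522 counts in the retina and 13424326 to 17809585 in the cells, and 3 counts correspond to 0.168 to 0.233 CPM, a limit that covers counting error only. CPM is the share of a library's counts, scaled by TMM. HIF activity was visible in the retina, where *Bnip3*, *Vegfa*, *Ankrd37*, *Slc2a1* and *Pdk1*, 5 HIF target genes, were called higher by 0.57 to 0.98 on the log2 scale. The RNA counted as *Hif1a*, which can take in that of the vector's mouse sequence too, was at 668 CPM with AAV::eGFP and at 687 CPM with AAV::*nsHif1a* (log2 fold change 0.05, adjusted p = 0.504 in limma). By Western blot at the same time after injection, the paper found clearly more HIF1A protein in retinas given AAV::*nsHif1a*. A property other than the vector separated the retinal libraries. *Xist*, the transcript of the inactive X chromosome, was counted in each of the 5 AAV::*nsHif1a* libraries but, of the controls, in libraries 1 and 2 only. AAV::eGFP libraries 3, 4 and 5 had 1 to 3 counts of it. No AAV::*nsHif1a* library lacked *Xist*, so a comparison within the libraries without it could not be made, and the cone gene results are given also for the 7 libraries with *Xist* where that changes a call or a sign. The other lists were not refitted in this way. Among the AAV::eGFP libraries, those with *Xist* lay apart from those without it for 5 cone genes, higher for *Opn1sw* (423 and 447 CPM, against 368 to 400), *Arr3*, *Pde6h* and *Gnb3* (407 and 428 CPM, against 369 to 396) and lower for *Pde6c* (35.5 and 36.4 CPM, against 38.99 to 45.06). So few libraries can easily lie apart, and the share of all genes that did so was not counted. The 5 genes are thus a description only.

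The opsins start the cascade and were among the abundant members. *Opn1sw*, the short-wavelength opsin, was at 447, 423, 383, 400 and 368 CPM in AAV::eGFP libraries 1 to 5 and at 470, 451, 383, 444 and 355 CPM in AAV::*nsHif1a* libraries 1 to 5. The 2 groups covered nearly the same range, and the difference was 0.07 on the log2 scale (95% limits -0.09 to 0.24, adjusted p = 0.631 in limma). *Opn1mw* was at 98.7, 95.2, 112.9, 89.5 and 96.9 CPM with AAV::eGFP and at 79.1, 81.8, 81.0, 75.2 and 91.3 CPM with AAV::*nsHif1a*. Only AAV::*nsHif1a* library 5 reached into the range of the AAV::eGFP libraries, and it overlapped with library 4 of that group alone. The log2 fold change of *Opn1mw* was -0.27 (SE 0.060, limits -0.40 to -0.14), and it stayed between -0.30 and -0.23 under the 19 alternatives, among them each library left out in turn. Its adjusted p rose above the threshold without AAV::*nsHif1a* library 2 (0.0543) or 3 (0.059), with the presence of *Xist* as a covariate (0.118) and in the libraries with *Xist* alone (0.0971). The ratio of *Opn1sw* to *Opn1mw*, in CPM, was 3.40 to 4.53 in the AAV::eGFP libraries and 3.89 to 5.95 in the AAV::*nsHif1a* libraries, with 4 of these 5 above the highest AAV::eGFP library. In bulk retina, fewer cones and less RNA per cone cannot be told apart. By ARR3 staining, the paper still found cones some weeks after the time of these libraries, and it reported most of them lost at a much later stage.

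*Arr3* binds activated cone opsin and is the usual antibody marker of cones. It was at 187, 189, 118, 143 and 134 CPM in AAV::eGFP libraries 1 to 5 and at 134, 126, 112, 127 and 102 CPM in AAV::*nsHif1a* libraries 1 to 5. Within AAV::eGFP the 2 libraries with *Xist* were above all others of the series, and the 3 without it were at 118 to 143 CPM, overlapping with the AAV::*nsHif1a* libraries. Over all 10 libraries the log2 fold change was -0.32 (SE 0.12, limits -0.58 to -0.06, adjusted p = 0.141 in limma). With *Xist* as a covariate it was -0.65 (adjusted p = 0.00308), and in the 7 libraries with *Xist* alone -0.64 (adjusted p = 0.0148), so that *Arr3* was then called lower. These values rest on AAV::eGFP libraries 1 and 2. *Arr3* and *Opn1mw* lie on the X chromosome, at chrX:99649101-99662099 and chrX:73171070-73194366 of GRCm39. *Pde6h*, on chromosome 6, was at 69.8 and 71.6 CPM in the AAV::eGFP libraries with *Xist* and at 45.5 to 55.4 CPM in those without. *Opn1mw* did not split in this way (95.2 and 98.7 CPM with *Xist*, 89.5 to 112.9 CPM without).

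The transducin subunits gave the 1 call. *Gnb3* was at 407, 428, 369, 396 and 385 CPM in AAV::eGFP libraries 1 to 5 and at 477, 648, 505, 573 and 641 CPM in AAV::*nsHif1a* libraries 1 to 5. The lowest AAV::*nsHif1a* library lay above the highest AAV::eGFP library. The mean rose from 396.9 ± 22.4 CPM (SD, n = 5) to 568.9 CPM, a log2 fold change of 0.52 (SE 0.081, limits 0.34 to 0.70, adjusted p = 0.00326 in limma). The value was close to the fold threshold of 0.5. Leaving out AAV::eGFP library 3 or 5 or AAV::*nsHif1a* library 2 or 5 brought it to 0.50, 0.50, 0.44 and 0.48, all just under the threshold, which ended the call, with adjusted p of 0.0015 to 0.0171 over all such fits. With *Xist* as a covariate *Gnb3* was at 0.44 (adjusted p = 0.0407), and in the 7 libraries with *Xist* alone at 0.44 (adjusted p = 0.0993). The count of cone genes called was 1 in both of these fits too, but the gene was then *Arr3*.

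*Gnb3* is not confined to cones, since ON bipolar cells also express it. The 10 ON bipolar markers tested beside it (among them *Grm6*, *Trpm1*, *Pcp2* and *Prkca*) had 8 members higher and none called by limma, edgeR or DESeq2, with 2 at an unadjusted p under 0.05. These were *Pcp2* (0.17, adjusted p = 0.138) and, in the other direction, *Prkca* (-0.18, adjusted p = 0.0147), the 1 marker of the list under an adjusted p of 0.05. Their log2 fold changes ran from -0.18 to 0.17, all below that of *Gnb3*, and their summed level was 1629 to 1729 CPM with AAV::eGFP and 1545 to 1797 CPM with AAV::*nsHif1a*. The part of ON bipolar cells in the *Gnb3* result was not tested. Among AAV::*nsHif1a* libraries, *Gnb3* and the HIF target *Bnip3* stood in the same order, library 2 highest, then 5, 4, 3 and 1. For *Vegfa* and *Pdk1* the order was 5, 2, 4, 3 and 1, and for *Slc2a1* and *Ankrd37* it was 5, 2, 3, 4 and 1. Library 1 was thus the lowest for *Gnb3* and for each of the 5 targets, and it was the lowest for *Hif1a* too. Among AAV::eGFP libraries none of the targets had the order of *Gnb3*, which was 2, 1, 4, 5 and 3, and that of *Bnip3* was 3, 2, 5, 1 and 4. How many of all genes were lowest in library 1 was not counted, and a link between *Gnb3* and HIF was not tested. Relative to *Gnb1*, the β-subunit of rod transducin, the counts of *Gnb3* were 0.0730 to 0.0947 per count of *Gnb1* in AAV::eGFP retinas and 0.106 to 0.166 in AAV::*nsHif1a* retinas.

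**Figure D2:**
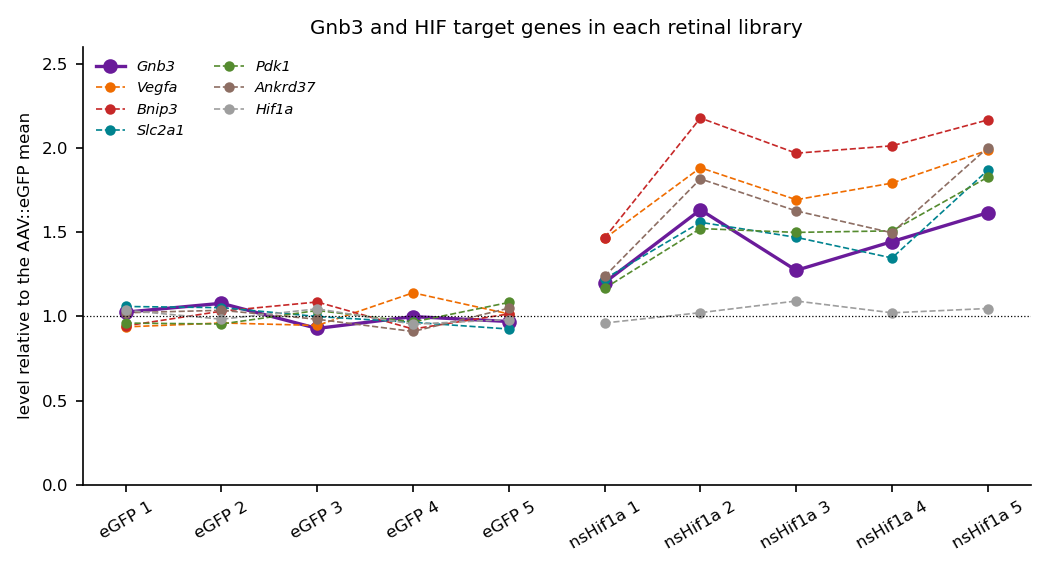
Level of *Gnb3* (thick purple line), of 5 HIF target genes and of *Hif1a* in each retinal library, divided by the gene's mean over the AAV::eGFP libraries (vertical axis from 0, dotted line at 1). Lines join libraries for legibility only. In AAV::*nsHif1a* library 1 *Gnb3* and each of the 5 targets is at its lowest of that group, and the grey *Hif1a* points stay near the dotted line in all 10 libraries.

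*Gnat2*, the cone transducin α-subunit, was at 119.7 to 138.3 CPM with AAV::eGFP and at 112.7 to 134.7 CPM with AAV::*nsHif1a*. The groups overlapped over most of their range, and the log2 fold change was -0.04 with limits of -0.16 to 0.08. *Gngt2*, the γ-subunit, was at 47.6 to 59.8 CPM and 49.0 to 61.4 CPM (0.08, limits -0.07 to 0.24, adjusted p = 0.553 in limma). The 3 subunits form 1 heterotrimer, and the upper limits of *Gnat2* and *Gngt2* lay below 0.34, the lower limit of *Gnb3*.

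The phosphodiesterase and channel genes were lower in level and did not pass the test. *Pde6c*, the catalytic subunit, was at 35.5 to 45.1 CPM with AAV::eGFP and 28.2 to 40.6 CPM with AAV::*nsHif1a* (log2 fold change -0.16, limits -0.38 to 0.07, adjusted p = 0.401). *Pde6h*, the inhibitory subunit, was at 45.5 to 71.6 CPM and 54.8 to 66.6 CPM, with a log2 fold change of 0.17 (limits -0.10 to 0.43). The sign of the *Pde6h* value turned to -0.18 with *Xist* as a covariate and in the libraries with *Xist* alone, without passing the test (adjusted p = 0.26 and 0.253). *Cnga3*, the main channel subunit, was at 10.2 to 14.2 CPM and 11.7 to 12.9 CPM (0.06, limits -0.13 to 0.26). *Cngb3*, which modulates the channel, was at 16.98 to 23.39 CPM and 18.22 to 22.04 CPM (0.16, limits -0.03 to 0.35). For both channel genes the AAV::*nsHif1a* libraries lay inside the range of the AAV::eGFP libraries.

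Added up, the 10 genes took 0.128% to 0.149% of the counts of an AAV::eGFP library and 0.134% to 0.165% of those of an AAV::*nsHif1a* library. Without *Gnb3* the shares were 0.0895% to 0.108% and 0.0848% to 0.100%, which overlap more closely.

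**Figure D3:**
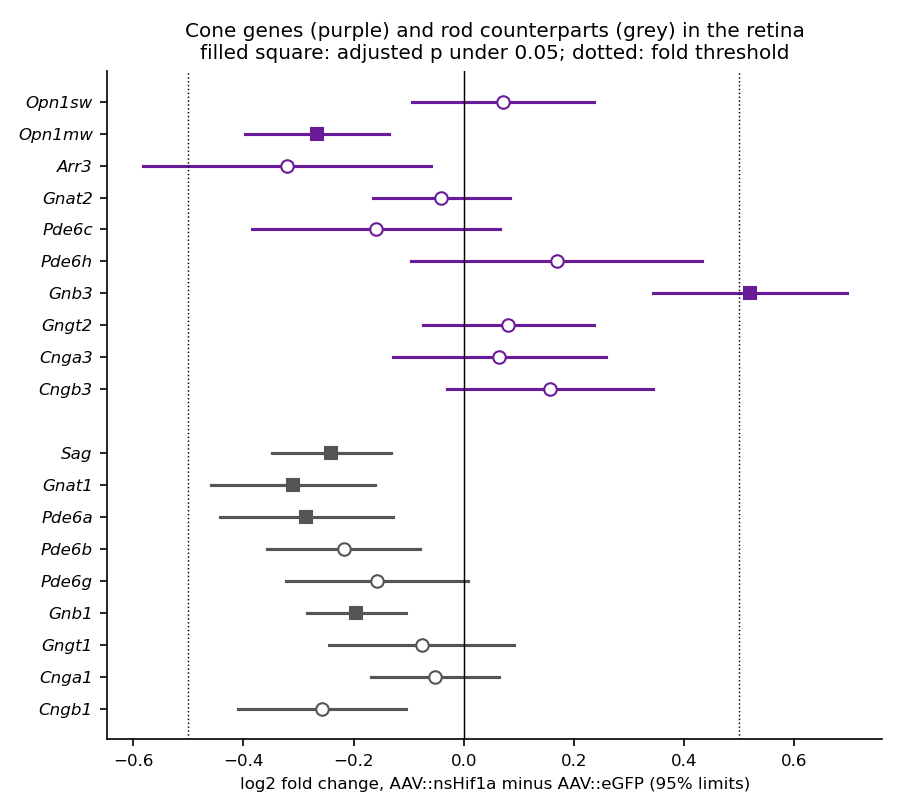
Log2 fold change of AAV::*nsHif1a* against AAV::eGFP with 95% limits (horizontal axis) for the 10 cone genes in purple and 9 rod counterparts in grey, from limma. Filled squares mark an adjusted p under 0.05 and the dotted lines the fold threshold. *Gnb3* is the gene past both, the cone genes lie on either side of 0, and the 9 rod genes lie below 0.

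The 9 rod counterparts examined were all at negative values, from -0.31 for *Gnat1* to -0.05 for *Cnga1*, with a median of -0.22. None was called by limma, edgeR or DESeq2, but 6 of 9 were under an unadjusted p of 0.05 and 4 under an adjusted p of 0.05. Of all 18859 genes tested these were 4097 and 1091. Set beside each other in pairs, the α-subunits had -0.04 (*Gnat2*) and -0.31 (*Gnat1*, adjusted p = 0.0214), and the β-subunits 0.52 (*Gnb3*) and -0.19 (*Gnb1*, adjusted p = 0.0173). The arrestins had -0.32 (*Arr3*) against -0.24 (*Sag*, adjusted p = 0.0155). The catalytic phosphodiesterase subunits had -0.16 (*Pde6c*) against -0.29 (*Pde6a*) and -0.22 (*Pde6b*), and the modulatory channel subunits 0.16 (*Cngb3*) against -0.26 (*Cngb1*). Differences between a cone gene and its rod partner were not tested. There were 0.0113 to 0.0139 counts of *Gnat2* per count of *Gnat1* in AAV::eGFP retinas and 0.0131 to 0.0163 in AAV::*nsHif1a* retinas, with ranges that overlap.

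The list taken as shared by rods and cones was closer to the rod set, and it is not free of rod genes. Of its 18 genes, 1 was higher, none was called by any of the 3 tools, 10 had an unadjusted p under 0.05, and the median was -0.15. The smallest p-values were those of *Rgs9*, which speeds the shutdown of transducin (-0.36, adjusted p = 0.0249), of the exchanger gene *Slc24a1* (-0.27, adjusted p = 0.0265) and of the retinol dehydrogenase gene *Rdh8* (-0.24, adjusted p = 0.0301). *Slc24a1* is the exchanger gene of rods, and that of cones, *Slc24a2*, is in the cone-enriched list. A second list of 7 genes enriched in cones (*Thrb*, *Rxrg*, *Sall3*, *Slc24a2*, *Kcne2*, *Ccdc136* and *Otop3*) had 3 higher, none called by the 3 tools and 2 at an unadjusted p under 0.05, *Kcne2* at 0.16 and *Otop3* at 0.36. Their median was -0.01. Of 10 photoreceptor transcription factors none was called by the 3 tools, 6 had an unadjusted p under 0.05, and *Rorb* (-0.31, adjusted p = 0.00929), *Crx* (-0.17, adjusted p = 0.0266) and *Nrl* (-0.20, adjusted p = 0.0566) were the lowest in p.

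Among the markers of other cells, the lens, microglial and pigment epithelial lists had the widest ranges between libraries. The 6 lens γ-crystallins summed to 634 to 2817 CPM with AAV::eGFP and 920 to 18956 CPM with AAV::*nsHif1a*, with a median log2 fold change of 2.43. None was called in limma, while edgeR called 2 and DESeq2 5, and all 6 had an unadjusted p under 0.05. Microglial markers summed to 28.01 to 155 CPM and 52.9 to 157 CPM, with 8 of 8 higher, a median of 0.89, 4 at an unadjusted p under 0.05 and none called by the 3 tools. The markers of the retinal pigment epithelium ran from 57.9 to 720 CPM and from 54.2 to 857 CPM. No gene of that list, of the Müller glia list (4782 to 4944 CPM and 4327 to 4858 CPM), of the ganglion cell list or of the amacrine and horizontal cell list was called by any of the 3 tools, with 0, 3, 1 and 0 at an unadjusted p under 0.05. The part of these cells in the cone values was not tested.

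For *Gnb3*, for *Arr3* and *Opn1mw*, the other 2 members at an unadjusted p under 0.05 in the retina, and for *Gnat2*, the only member with a match to both letter groups searched, the sequence around the start of the canonical transcript is shown, from 250 bases before it to 50 after it, read from GRCm39 on the strand of the gene. Capitals mark TAATCC, the core letters bound by the photoreceptor factor CRX, and ACGTG or GCGTG, the core letters of HIF sites, on either strand. The windows are chr6:124817189-124817488 (minus strand) for *Gnb3*, chrX:99648851-99649150 (plus strand) for *Arr3*, chrX:73170820-73171119 (plus strand) for *Opn1mw* and chr3:107999855-108000154 (plus strand) for *Gnat2*.
Gnb3: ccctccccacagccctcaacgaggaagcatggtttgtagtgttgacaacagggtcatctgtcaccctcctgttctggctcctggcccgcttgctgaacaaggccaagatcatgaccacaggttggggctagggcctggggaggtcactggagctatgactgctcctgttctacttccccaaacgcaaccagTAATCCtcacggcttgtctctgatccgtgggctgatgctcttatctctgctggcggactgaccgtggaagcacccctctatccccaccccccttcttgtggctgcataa
Arr3: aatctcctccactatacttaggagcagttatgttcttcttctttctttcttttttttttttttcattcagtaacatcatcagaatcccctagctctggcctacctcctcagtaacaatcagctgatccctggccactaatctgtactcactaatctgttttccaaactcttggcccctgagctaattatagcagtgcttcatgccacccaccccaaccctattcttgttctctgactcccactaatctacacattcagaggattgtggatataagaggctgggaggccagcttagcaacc
Opn1mw: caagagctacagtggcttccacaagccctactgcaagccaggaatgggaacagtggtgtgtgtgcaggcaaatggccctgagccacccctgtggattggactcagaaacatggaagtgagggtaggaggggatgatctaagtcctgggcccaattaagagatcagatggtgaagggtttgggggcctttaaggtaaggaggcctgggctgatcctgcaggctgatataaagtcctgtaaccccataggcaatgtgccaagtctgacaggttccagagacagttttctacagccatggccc
Gnat2: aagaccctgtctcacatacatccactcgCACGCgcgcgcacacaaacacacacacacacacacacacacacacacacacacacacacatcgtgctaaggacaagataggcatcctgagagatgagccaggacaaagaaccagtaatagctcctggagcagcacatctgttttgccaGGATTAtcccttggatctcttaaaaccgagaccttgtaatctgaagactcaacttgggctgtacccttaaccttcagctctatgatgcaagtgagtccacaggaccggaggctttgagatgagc
In *Gnb3* the TAATCC letters lie at position -59 from the start, and neither ACGTG nor GCGTG is in the window. In *Gnat2* the reverse complement of TAATCC lies at -74 and that of GCGTG at -222. The windows of *Arr3* and *Opn1mw* hold none of these letters. Over the 10 cone genes TAATCC was found in 4 windows (*Gnat2*, *Pde6c*, *Gnb3* and *Cngb3*), where 7.717% of 21770 promoters of the same length hold it, and ACGTG or GCGTG in 2 (*Gnat2* and *Gngt2*), where 47.983% do. ACGTG alone was in none of the 10, against 20.707% of all promoters. A match of letters is not a bound site, and its absence from this window says nothing of the factor.

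The members are spread over the genome, with *Opn1sw*, *Pde6h* and *Gnb3* on chromosome 6 and *Arr3* and *Opn1mw* on X. Within 50 kb of the 10 genes 31 other genes were tested, of which 2 were called higher and none lower in limma. *Gnb3*, at chr6:124811202-124817238, had 8 of these neighbours. Of the 8, *Spsb2*, 23616 bases away, was called higher (log2 fold change 0.79, adjusted p = 0.00722), and the glycolytic gene *Tpi1*, 19929 bases away, was at 0.38 (adjusted p = 0.00125), under the fold threshold. The genes closest to *Gnb3*, *Cdca3* and *P3h3*, were at -0.29 and 0.02 and did not pass the test. The other called neighbour was *Phospho1* (0.91, adjusted p = 0.0013), 2980 bases from *Gngt2*. *Opn1sw*, *Pde6h* and *Gngt2* overlap a gene on the opposite strand, which the stranded counting kept apart, and *Cngb3* overlaps a pseudogene on its own strand (*Gm11877*). *Zfp652*, on the strand of *Gngt2*, lies 12 bases from it and was at 102 CPM in the AAV::eGFP retina. Whether reads running on from *Zfp652* entered the counts of *Gngt2* was not tested. The transcripts of the 10 genes had 0% to 0.833% of their 50-base words in common with other genes, the highest share being that of *Gnat2*.

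Levels of different genes were compared as CPM per kb of annotated exon. In the AAV::eGFP retina the order was *Opn1sw* (168 ± 13.0, SD, n = 5), *Gnb3* (147 ± 8.32), *Arr3* (113 ± 23.7), *Opn1mw* (79.3 ± 6.97), *Gnat2* (52.7 ± 3.07), *Gngt2* (13.2 ± 1.11), *Pde6c* (13.2 ± 1.25), *Pde6h* (9.75 ± 2.06), *Cngb3* (4.04 ± 0.551) and *Cnga3* (2.02 ± 0.268). The first 4 overlapped each with the next in the ranges of their libraries, and so did *Gngt2* with *Pde6c* and *Pde6c* with *Pde6h*. Steps without overlap were those from *Opn1mw* to *Gnat2*, from *Gnat2* to *Gngt2*, from *Pde6h* to *Cngb3* and from *Cngb3* to *Cnga3*. The rod genes stood far higher on the same scale, with *Gnat1* at 4465 and *Sag* at 3036 CPM per kb. Exon lengths are unions over annotated transcripts, which lowers the value of genes with long unused exons.

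In 661W cells transfected with CMV-eGFP, the cone cascade was almost not counted. *Gnat2* had 16, 14, 25 and 11 counts in replicates 1 to 4 and *Gngt2* 12, 20, 12 and 12, which is 1.04 ± 0.291 and 0.906 ± 0.275 CPM (SD, n = 4). The other 8 genes had 0 to 3 counts per library. Summed over the 4 libraries these were 9 counts for *Opn1sw*, 8 for *Cnga3*, 5 for *Pde6h*, 3 for *Cngb3*, 2 for *Gnb3*, 1 each for *Arr3* and *Pde6c*, and 0 for *Opn1mw*. At totals of 13424326 to 17051276 counts per library, 3 counts amount to 0.176 to 0.223 CPM, so levels below this could not be seen in a single library.

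**Figure D4:**
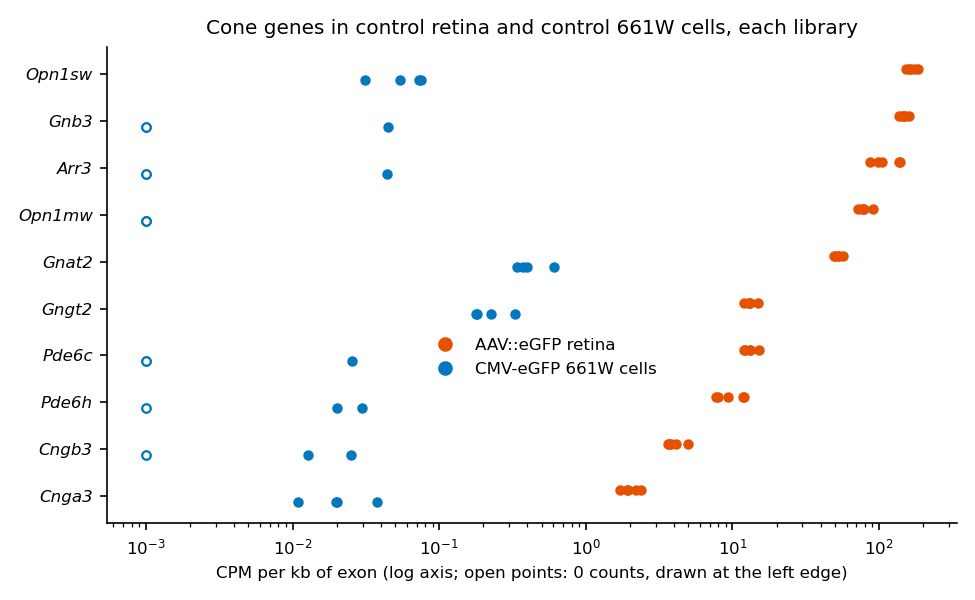
Level of each cone gene in CPM per kb of exon (logarithmic horizontal axis) in the 5 AAV::eGFP retinal libraries (orange) and the 4 CMV-eGFP 661W libraries (blue). Open points are libraries with 0 counts and are drawn at the left edge. *Gnat2* and *Gngt2* are the 2 genes with over 10 counts in each cell library, and their blue points lie nearest to the orange ones together with those of *Cnga3*.

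Set against the control retina, the pooled share of counts on *Gngt2* was 58.6 times lower in control cells (exact 95% limits 45.0 to 77.7, counting error only), on *Cnga3* 95.1 times (48.04 to 221) and on *Gnat2* 120.7 times (94.8 to 156). For *Cngb3* the ratio was 399 (136 to 1935), for *Pde6h* 725 (310 to 2233), for *Pde6c* 2450 (439 to 96800), for *Opn1sw* 2807 (1479 to 6140), for *Arr3* 9591 (1721 to 378800) and for *Gnb3* 12410 (3435 to 102500). *Opn1mw* was at least 2062-fold lower, with 3 counts over the group taken as the floor. *Gnb3* and *Arr3*, near the top of the order in the retina, were thus among the genes with the largest ratios. The limits of *Gngt2* do not overlap those of *Gnat2*, and those of *Cnga3* overlap with both. In the limma comparison of control cells with control retina, 45.7% of 19731 genes were called lower in cells and 35.4% higher. The 10 cone genes entered this test through their retinal counts and had to differ, so their number among the calls is not informative.

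Listed photoreceptor genes other than the cone cascade were in part near 0 in the line as well. Per control library there were 0 to 9 counts of *Gnat1*, 0 to 2 of *Crx*, 0 to 2 of *Nrl* and 0 to 2 of *Nr2e3*. Some other photoreceptor genes were counted in every control library, with 15 to 24 counts of *Sag*, 17 to 52 of *Samd7*, 54 to 66 of *Abca4* and 57 to 88 of *Rom1*. They are not typical of their lists, since 5 of 18 shared genes and 3 of 9 rod counterparts had enough counts in cells to be tested. Summed over the 4 control libraries there were 8 counts of *Prph2*, 7 of *Rbp3*, 3 of *Pdc*, 1 of *Rcvrn* and 0 of *Gucy2f*. *Gnb1* was at 583 CPM, *Mef2d* at 170 CPM, the cone-enriched gene *Ccdc136* at 33.6 CPM, *Rorb* at 32.04 CPM and *Otx2* at 26.9 CPM. Whether expression of these genes is particular to photoreceptors was not tested, so their levels are no measure of kept photoreceptor identity. The rod phosphodiesterase gene *Pde6a* had 128 to 156 counts per control library, and its 2.03 CPM per kb was above the 0.430 of *Gnat2* and the 0.228 of *Gngt2* on the same scale. For comparison with the cone genes, the pooled ratio of retina to cells was 232.5 for *Pde6a* (214 to 253), 4.70 for *Ccdc136* (4.48 to 4.92) and 6.08 for *Otx2* (5.776 to 6.401). Of the other cone-enriched genes, *Thrb* had 14 to 24 counts (1.19 CPM), near the 1.04 CPM of *Gnat2*, while *Rxrg*, *Sall3*, *Slc24a2*, *Kcne2* and *Otop3* had 0 counts in all 4 control libraries.

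**Figure D5:**
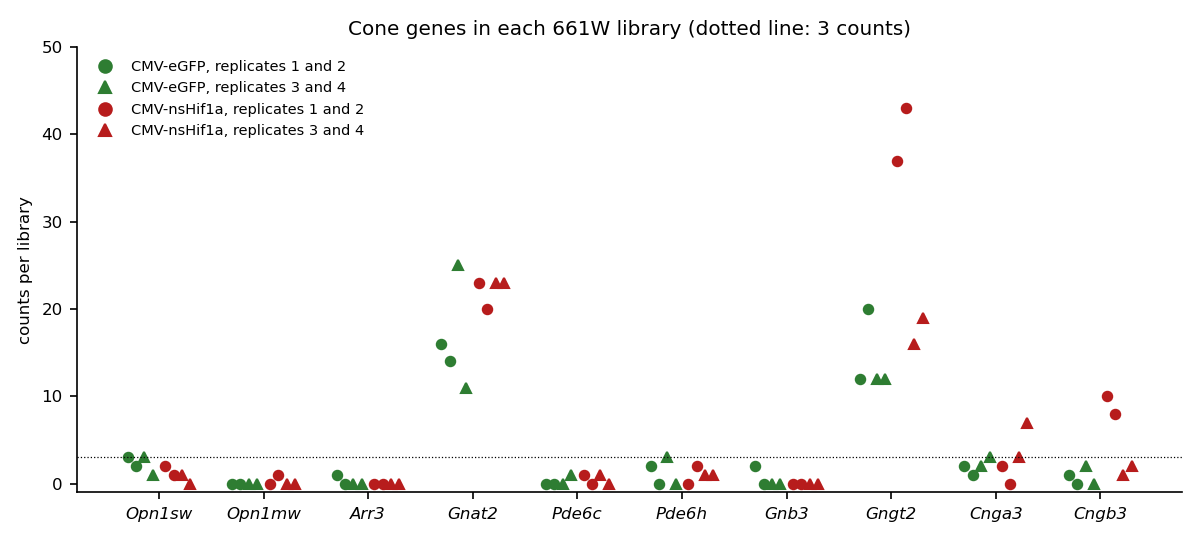
Counts of each cone gene in the 4 CMV-eGFP (green) and 4 CMV-*nsHif1a* (red) 661W libraries (vertical axis). Circles are replicates 1 and 2, triangles replicates 3 and 4, and the dotted line is at 3 counts. *Gnat2* and *Gngt2* stand above the line in every library, and the red circles of *Gngt2* and *Cngb3* stand above all other points of these genes.

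Of the 2 cone genes that passed the count filter in cells, none was called with CMV-*nsHif1a* in limma, edgeR or DESeq2. Over all 15962 genes tested limma called 1.21% higher and 0.0626% lower, so the lack of a call among 2 genes is not informative. Under the replicate block the number of genes called in all fell from 203 to 107, and none of them was a cone gene. *Hif1a*, which counts the transfected plasmid too, was higher by 3.26 on the log2 scale, and the 5 HIF targets were called as well. *Gnat2* had 23, 20, 23 and 23 counts with CMV-*nsHif1a*, against 11 to 25 with CMV-eGFP (log2 fold change 0.38, limits -0.15 to 0.91, adjusted p = 0.389 in limma). *Gngt2* had 37, 43, 16 and 19 counts, against 12 to 20. Replicates 1 and 2 were high and replicates 3 and 4 were in or near the range of the controls. Over the 4 replicates *Gngt2* was at 0.89 on the log2 scale (limits 0.03 to 1.75, unadjusted p = 0.0433, adjusted p = 0.226 in limma), the 1 cone gene at an unadjusted p under 0.05, and 0.88 with the block (adjusted p = 0.149). That unadjusted level was reached by 3304 of the 15962 genes tested in cells. Without CMV-*nsHif1a* replicate 3 *Gngt2* was at 1.41 (adjusted p = 0.0075) and without replicate 4 also at 1.41 (adjusted p = 0.00927), and the gene was then called.

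*Cngb3*, which was too low to be tested, had 10 and 8 counts in CMV-*nsHif1a* replicates 1 and 2, 1 and 2 counts in replicates 3 and 4, and 1, 0, 2 and 0 counts in the controls. The split between replicates 1 and 2 and replicates 3 and 4 is thus the same as that of *Gngt2*, whereas *Gnat2* had 43 counts in the first pair and 46 in the second. *Cnga3* had 2 counts in the first pair and 10 in the second. No other member exceeded 3 counts in a library. The other listed photoreceptor genes gave no call. Of 3 rod counterparts tested (*Sag*, *Pde6a* and *Gnb1*), 5 shared genes, 2 cone-enriched genes and 4 transcription factors none was called by the 3 tools or had an unadjusted p under 0.05.

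Whether the effect of *nsHif1a* differed between retina and cells was tested as an interaction in a fit of the 18 libraries together. The retinal minus the cellular log2 fold change was -0.43 for *Gnat2* (limits -1.12 to 0.26, adjusted p = 0.567 in limma) and -0.64 for *Gngt2* (-1.48 to 0.20, adjusted p = 0.451). Neither passed the threshold, which 489 of 20999 genes did, and the limits are wide because of the low counts in cells. For *Gnb3*, the gene called in the retina, there were 2 counts in all control cells and 0 in all CMV-*nsHif1a* cells, so a change in the line was not detectable at this depth.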

How the data were processed

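Retinas and 661W cells were profiled by stranded mRNA sequencing. The authors aligned paired-end reads with Rsubread (GRCm39, gencode M36 basic) and ran featureCounts in antisense mode. The deposited tables hold its raw counts per gene as whole numbers, without normalization. Groups and replicate numbers came from the sample titles.

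Genes were kept by filterByExpr (minimum count 10) and libraries were scaled by TMM (edgeR 4.0.16). The output of voomWithQualityWeights entered lmFit and eBayes (limma 3.58.1, R 4.3.3), 2-sided, with Benjamini-Hochberg adjustment over all genes tested. Calls needed an adjusted p under 0.05 and an absolute log2 fold change above 0.5. The fits were tested on simulated data. Other settings tried were the quasi-likelihood test of edgeR, DESeq2 1.42.0, other weights, size factors and filters, no fold threshold, a replicate block, *Xist* or replicate set as a covariate, and each library left out. Same-numbered cell libraries deviated together (correlations 0.227 to 0.269) and retinal ones did not (-0.148 to 0.138). Cell numbers were therefore taken as pairs for the block, from the data alone, although replicate 1 of one group correlated best with 2 of the other, and 2 with 1.

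Positions came from gencode M39, which held 78168 of the 78239 genes. The members and the marker lists were chosen with earlier results of these data known. Named genes were the 10 members, the rod or shared genes set beside them, each listed gene called, or up to 3 of smallest p in a list without a call, and the 5 genes of nearest profile. Neighbouring genes, the nearest profiles of *Gnb3* and cell line genes given as levels were named after their values were seen. A gene of the rod list was left out and is not reported here.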

Additional observations from a re-analysis of the deposited data

How the results depend on the processing

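Both the counts of calls and some of the cone values moved with the settings, *Arr3* in the retina from -0.65 to -0.22 on the log2 scale. In the retina 375 genes were called, 1091 without a fold threshold, 200 with the replicate block, 221 with *Xist* as a covariate, 140 in the libraries with *Xist* alone and 219 to 528 with 1 library left out, of which 219 was without AAV::eGFP library 4 and 243 without library 5. Of the cone genes 1 was called, 2 without a fold threshold and 0 to 1 with 1 library left out. In cells 203 genes were called, 366 by DESeq2, 107 with the replicate block, 592 with the replicate set (1 and 2, or 3 and 4) as a covariate, 397 without a fold threshold, and 84 to 1878 with 1 library left out, with the extremes without CMV-eGFP replicate 1 (84) and 2 (89) and CMV-*nsHif1a* replicate 3 (1878) and 4 (1876). Of the 2 cone genes tested in cells none was called, or 0 to 1 with 1 library left out, and a minimum count of 30 left none to test. Control cells and control retina differed in 15997 genes, or 24121 without a filter.

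Signs turned, without passing the test, for *Opn1sw* (-0.047 with *Xist* as a covariate and -0.046 in the libraries with *Xist* alone), *Pde6h* (-0.18 in both) and *Gngt2* in the retina (-5.541e-05 with the covariate). No paired effect is claimed for the retina, where the replicate numbers did not pair the libraries; under the replicate block *Gnb3* remained called there (0.50, adjusted p = 0.0104) and *Opn1mw* was at -0.29 (adjusted p = 0.0523). Over the 19 alternatives in the retina and 15 in cells no sign or call of a cone gene changed other than these and those given above for *Gnb3*, *Arr3* and *Gngt2*. The causes were not tested. Depth limits the cell values, with 8 members under the count filter.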

Other observations

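The 10 cone genes did not share 1 profile over the 10 retinal libraries. Likeness was measured as the root mean square difference between standardized log2 CPM values, where 0 is the same shape. Measured from the mean profile of the list, *Gnat2* was the nearest member (0.519) and *Pde6c* the farthest (1.30), with *Gnb3* at 1.26 and *Opn1mw* at 1.29. The 5 genes of the whole table nearest to that mean profile were *Fbxl17* (0.391), *Fam222b* (0.453), *Med27* (0.481), *Gm56644* (0.484) and *Nwd1* (0.490), none of which was called. The nearest member to any single member was at 0.827 to 1.09. The genes nearest to *Gnb3* were *Plekha2* (0.132, log2 fold change 0.49), *Uaca* (0.157, 0.42) and *Gadd45g* (0.207, 1.21), while the nearest cone gene, *Pde6h*, was at 1.04. With 10 libraries and 18859 genes tested, near profiles are to be found for most shapes, so these names are descriptions only.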
